A study of Schizosaccharomyces pombe with 3 samples.

Results

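The surroundings of dispersed tRNA genes were the probes whose middle lay inside, or within 500 bp of, a tRNA gene on chromosome II of the fission yeast Schizosaccharomyces pombe. The stretch searched ran from array base 1000011 to 3049820 and left out 1582661 to 1665020. It held 14 tRNA genes, whose flanks did not overlap, so they gave 14 separate loci. The loci held 301 of the 43993 probes on the array, with 21 or 22 probes per locus, and 21 of the 301 probes had their middle inside a tRNA gene. Probes were 60 bases long and started every 50 bp, so neighbouring probes overlapped. The rule takes its loci by their position in the annotation. The genes covered 9 isotypes, with 4 genes for proline, 2 each for leucine and threonine, and 1 each for arginine, asparagine, glycine, methionine, phenylalanine and tryptophan.

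The mark mapped was H3K9ac, histone H3 acetylated at lysine 9, which goes with active chromatin, by chromatin immunoprecipitation and tiling arrays in 3 strains: wild type, a strain with alp13 deleted, and a strain with asf1-1, an allele of asf1. All were growing in log phase in rich medium (YEA) at 30 °C and were fixed with 3% paraformaldehyde at 18 °C, and their DNA was sheared to fragments of 500 to 1000 bp. A single array (1 per strain) took Cy5-labelled precipitated DNA together with Cy3-labelled DNA of the whole-cell extract, both amplified beforehand by random-primed PCR. There were no replicates, so no difference below has a replicate check and none was tested. Both mutants were set against the same wild-type array. No array measured total histone H3, so less H3 and less acetylation of H3 cannot be told apart.

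Transfer RNA genes are transcribed by RNA polymerase III. Their promoter lies inside the gene, in elements called the A box and the B box that the factor TFIIIC binds, and transcription ends at a run of T just past the gene. In budding yeast, tRNA genes are known as places poor in nucleosomes, and in fission yeast tRNA genes at centromeres are known as borders of heterochromatin. Alp13 is a chromodomain protein of the complex around the histone deacetylase Clr6, and Asf1 is a chaperone of histones H3 and H4.

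The gene sequences below, from RefSeq ASM294v3, are shown because 4 of the 14 loci hold the same gene in different surroundings and because the other 3 had the highest wild-type level, the next highest, and the lowest level without alp13. Each runs 5′ to 3′ along the tRNA gene and 25 bases past it. The first run of capitals is the B box match and the second the first run of 4 or more T.
SPBTRNAPRO.04, chrII:1825787-1825858, minus strand: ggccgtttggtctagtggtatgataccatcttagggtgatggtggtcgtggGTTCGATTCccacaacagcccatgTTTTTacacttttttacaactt
SPBTRNAPRO.05, chrII:1877221-1877292, plus strand: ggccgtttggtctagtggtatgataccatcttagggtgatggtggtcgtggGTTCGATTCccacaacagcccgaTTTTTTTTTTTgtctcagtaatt
SPBTRNAPRO.06, chrII:2319292-2319363, plus strand: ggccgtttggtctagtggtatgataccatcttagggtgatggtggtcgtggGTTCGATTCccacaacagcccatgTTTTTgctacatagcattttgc
SPBTRNAPRO.07, chrII:2939715-2939786, plus strand: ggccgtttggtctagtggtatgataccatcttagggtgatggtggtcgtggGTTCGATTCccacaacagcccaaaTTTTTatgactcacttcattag
SPBTRNAMET.06 (imt06), chrII:2434303-2434374, minus strand: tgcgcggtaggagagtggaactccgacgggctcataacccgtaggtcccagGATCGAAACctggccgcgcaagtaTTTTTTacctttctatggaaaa
SPBTRNALEU.08, chrII:2768257-2768335, minus strand: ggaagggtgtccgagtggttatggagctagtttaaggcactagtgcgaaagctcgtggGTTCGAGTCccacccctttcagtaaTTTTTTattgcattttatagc
SPBTRNATHR.07, chrII:2790375-2790446, minus strand: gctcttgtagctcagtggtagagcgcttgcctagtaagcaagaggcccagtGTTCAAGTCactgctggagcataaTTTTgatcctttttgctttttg

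The proline genes SPBTRNAPRO.04, SPBTRNAPRO.05, SPBTRNAPRO.06 and SPBTRNAPRO.07 have the same 72 bases and differ only in what follows, where the first T run is 5 bases long after 3 of them and 11 bases long after SPBTRNAPRO.05. The B box motif GTTCGANNC, with N for any base, occurred in 11 of the 14 genes. It occurred in 131 of the 171 tRNA genes of chromosomes I to III (76.6%) and, on either strand, in 0.327% of 26924 windows of 73 bp along the stretch. The looser motif GNTCNANNC, which includes the first, occurred in all 14 genes, in 93.6% of the tRNA genes and in 6.20% of the windows. The 3 genes with only the looser motif were SPBTRNATRP.03 and SPBTRNATHR.07, both with GTTCAAGTC, and imt06 with GATCGAAAC. In each of the 14 genes the match ended 12 bases before the gene's end. A run of 4 or more T stood within 25 bases past the end of all 14 genes and of 95.3% of the tRNA genes. Of windows of 25 bases, 39.2% held such a run on either strand. A match of letters is not a measure of binding.

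A level below is the log2 ratio of Cy5 to Cy3 intensity minus the array's median over all probes, so 0 is the array median, and a change is a mutant's level minus that of wild type. Near-duplicate probes on the same array (240 pairs) gave the level of 1 probe an SD of 0.126 on the wild-type array, 0.164 without alp13 and 0.136 in asf1-1. For 1 probe's change the SD was 0.133 without alp13 and 0.0767 in asf1-1. These are errors within an array and say nothing of the spread between cultures. The genes alp13 and asf1 have no probes, so the strain of each array is known from its label only. The member probes were dimmer in Cy3 than other intergenic probes, with a median intensity of 750.3 against 1052 on the wild-type array, 772 against 1123 without alp13 and 717 against 1022 in asf1-1. Their median Cy5 intensity was 504 against 1399, 394 against 928 and 469 against 1162 in the same order. At most 3 of the 301 probes in either channel of any array were not well above background. Their median GC content was 30%, against 31.7% for other intergenic probes. The part of brightness and base composition in the results was not tested.

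The wild-type array answers where H3K9ac lay around tRNA genes in unaltered cells. The surroundings of tRNA genes were low in H3K9ac for intergenic DNA, and lower toward the gene. The median level of the 301 probes was -0.49, with quartiles at -0.93 and 0.28, against 0.58 over the 7991 other intergenic probes of the stretch. The 249 member probes outside protein-coding genes lay 1.12 below those other intergenic probes (difference of medians -1.12). The difference depended on position. It was -0.33 within the 500 bp upstream of protein-coding genes (87 member probes), -0.94 downstream of them (78 probes) and -1.32 elsewhere between genes (84 probes). Probes upstream of 1 gene and downstream of another counted as upstream, here and below. Member probes in the last or first 400 bp of protein-coding genes (52 probes) lay -0.57 from the 12667 other such probes. With another background correction of the scanner signals, normexp, the median of the members was -0.10 and their difference from other intergenic probes -0.47. On Cy5 intensity alone those values were -1.84 and -1.47. Both differences take all 301 members, so their main counterpart is the gap between -0.49 and 0.58, not -1.12.

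The wild-type level climbed with distance from the gene. Its median was -0.75 over the probes inside tRNA genes, -0.71 within 100 bp, -0.60 from 101 to 200 bp, -0.37 from 201 to 300 bp, -0.21 from 301 to 400 bp and -0.15 from 401 to 500 bp. Even at the edge of the flanks it was below that of other intergenic DNA. These distance classes also hold the 52 member probes inside protein-coding genes, which that background leaves out. Inside the gene and within 100 bp the wild-type medians were close, and in the mutants their order was the other way. They read -1.39 inside and -1.56 within 100 bp without alp13, and -0.85 and -1.02 in asf1-1. In wild type the order differed between loci. At SPBTRNATRP.03 the level was -0.25 inside and -0.88 within 200 bp, and at SPBTRNALEU.08 it was -0.81 and 0.26. In bins of 100 bp averaged over the 14 loci, the lowest wild-type level stood at the middle of the gene, at -0.71, and the highest at 700 bp upstream, at 0.28. The spread between loci was wide, as the bands in the plot of the mean profiles show.

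**Figure D1:**
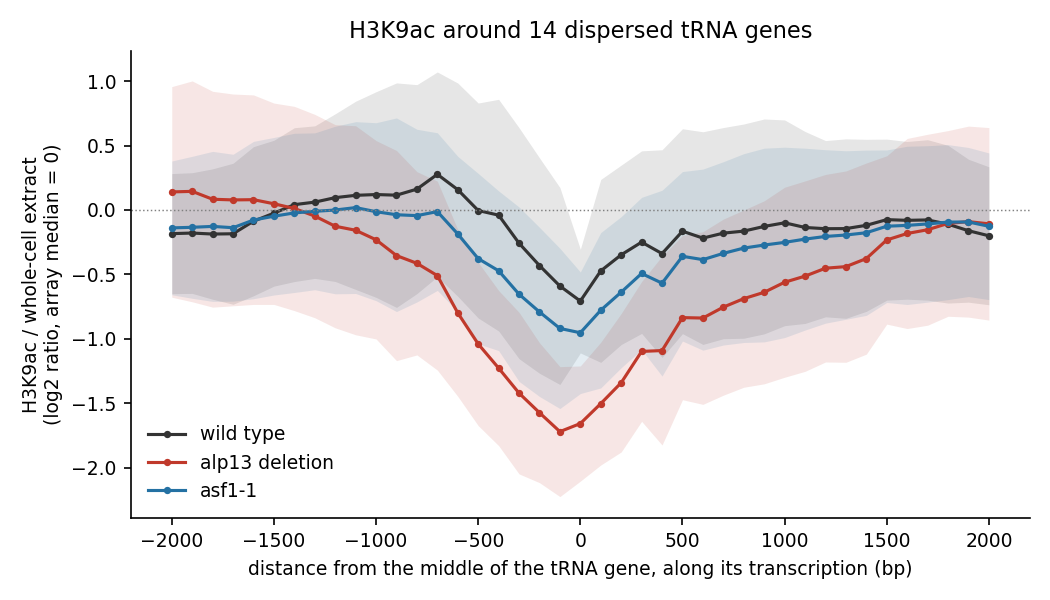
Mean H3K9ac level (log2 ratio, array median at 0) in bins of 100 bp against distance from the middle of the tRNA gene, with transcription running to the right. Lines are means of the 14 loci on 1 array per strain and bands are 1 SD between loci, which is not a replicate error; all 3 lines are lowest at or next to the gene, at -0.71 in wild type, -0.95 in asf1-1 and -1.72 in the alp13 deletion.

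Whether the dip was local was read from each locus alone, as its mean level within 200 bp of the gene minus that from 1 to 2 kb away, a value that the centring of the array cannot move. In wild type it ran from -1.24 at SPBTRNATHR.07 over a median of -0.48 to 0.32 at imt06. It was at or below -0.58, which is 1.5-fold lower, at 6 of the 14 loci. Around the middles of 219 intergenic regions of the stretch without a tRNA gene, 6.39% were as low and the median was 0.67, so ordinary intergenic DNA was as a rule higher than what lay around it. The wild-type dip rested on the background correction: under normexp its median was -0.059 and 2 loci passed the threshold.

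Intergenic regions with a tRNA gene were compared with those without by the direction of the flanking protein-coding genes, over regions of at least 582 bp, the length of the shortest with a tRNA gene. Regions between divergent genes, which hold a pair of promoters, had a wild-type median of -0.30 with a tRNA gene (5 regions) and 0.77 without (129 regions). Between tandem genes the medians were 0.15 (6 regions) and 0.42 (85 regions), and between convergent genes, whose ends face each other, -0.83 (3 regions) and 0.67 (6 regions). In all 3 arrangements the median was lower with a tRNA gene, by least between tandem genes. The convergent background was of few, long regions. Without the length limit, 51 convergent regions without a tRNA gene had a median of -0.05, and 52.9% of them lay below the array median. Of the 14 regions with a tRNA gene, 9 had a mean below the array median, against 22.3% of the 220 without. Ranges overlapped throughout, from -1.02 to 0.68 with a tRNA gene and from -1.69 to 2.04 without.

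**Figure D2:**
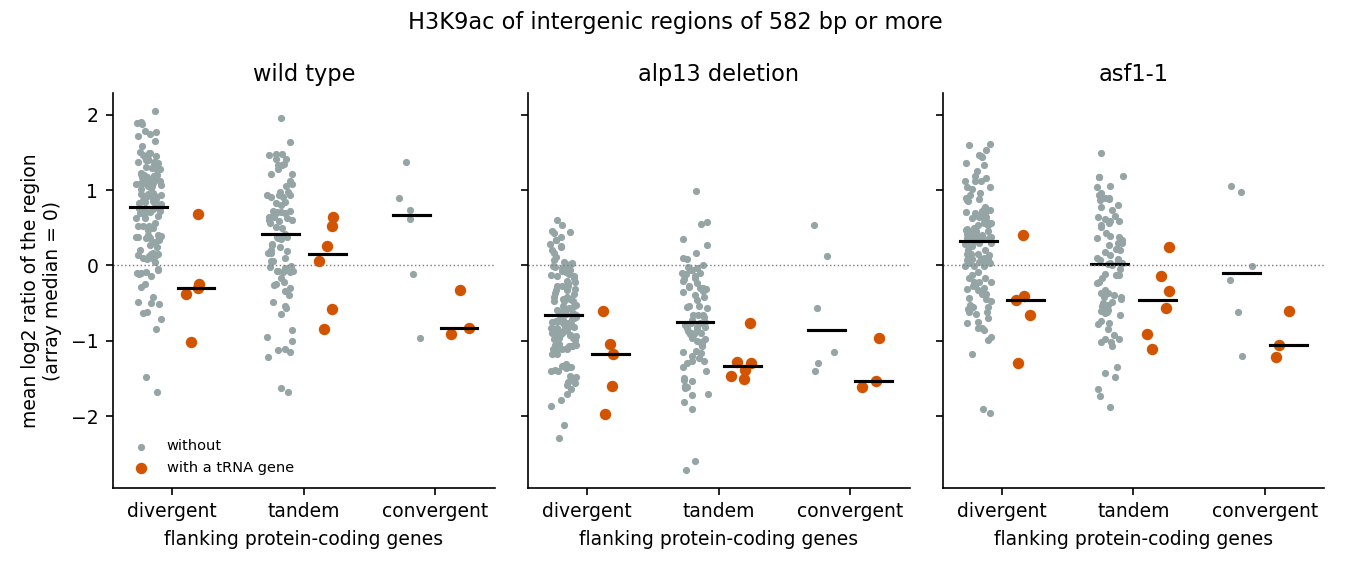
Mean H3K9ac level of each intergenic region of at least 582 bp (log2 ratio, array median at 0), by the direction of its flanking genes and by strain, with small grey points for regions without and large orange points for regions with a tRNA gene. Black lines are medians; the 14 regions with a tRNA gene overlap the grey points and some lie above the grey medians, while their own medians over all directions are lower, at -0.32 (wild type), -1.34 (alp13 deletion) and -0.58 (asf1-1) against 0.68, -0.71 and 0.15 without.

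The 14 loci differed widely among themselves. A locus level is the mean of its probes, and the SD given is across its probes. The highest wild-type level was 0.71 ± 1.08 (SD, 21 probes) at imt06, whose symbol marks the initiator methionine tRNA, followed by 0.59 ± 0.65 (21 probes) at SPBTRNALEU.08 and 0.43 ± 0.42 (22 probes) at SPBTRNAPHE.03. The lowest were -0.998 ± 0.37 (22 probes) at SPBTRNAPRO.04, -0.98 ± 0.21 (21 probes) at SPBTRNATRP.03 and -0.96 ± 0.48 (21 probes) at SPBTRNATHR.06. Of the 14 loci, 10 lay below the array median, against 46.2% of 1759 windows of 1100 bp elsewhere in the stretch. All 3 loci between convergent genes were among the low ones, from -0.98 to -0.64, while loci between divergent genes ran from -0.96 to 0.59 and those between tandem genes from -0.998 to 0.71.

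At the high loci the tRNA gene stood as a notch. At SPBTRNALEU.08 the probe in the gene read -0.81 and its neighbour over the gene's 5′ edge -1.76, while the next probes on either side read 0.93 and 0.61. At imt06 the probe in the gene read -0.46 between neighbours at 0.59 and 0.62. At other loci the gene stood above its neighbours instead. At SPBTRNATRP.03 the probe in the gene read -0.25 between neighbours at -0.91 and -0.94. At SPBTRNATHR.07 the probes in the gene read -0.86 between neighbours at -1.49 and -1.20. Over all loci the level inside the gene ran from -1.14 at SPBTRNAARG.05 to 0.00 at SPBTRNAPHE.03, and 10 of 14 were lower than the array median by at least 1.5-fold, where 11.6% of single intergenic probes elsewhere and 22.2% of all other probes of the stretch were. The 10 include the 4 identical proline genes, whose inside values are not separate measurements. Probes inside tRNA genes had a median GC content of 46.7% and a median Cy3 intensity of 1789, both above those of the flanks. The part of these in the notch was not tested. On Cy5 intensity alone imt06 read -2.32 and SPBTRNALEU.08 -1.71. At imt06 the median Cy3 intensity of the locus was 162 in wild type, the dimmest of the 14, and 1 probe in SPBC21D10.08C read -3.22 in wild type, -4.30 without alp13 and -3.56 in asf1-1.

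The 4 identical proline genes read alike inside the gene and differently around it. Inside, they spanned 0.178 in wild type (from -0.83 to -0.65), 0.0884 without alp13 and 0.0717 in asf1-1. A probe in one copy takes up DNA of all 6 identical copies of the genome, so these inside values are not separate measurements. Within 200 bp of the gene the 4 loci spanned 1.04 in wild type, from -1.19 to -0.15, then 0.48 without alp13 and 0.79 in asf1-1. The same gene thus stood in low surroundings at SPBTRNAPRO.04, between nop52 and clc1 (the clathrin light chain), and near the array median at SPBTRNAPRO.05, between SPBC3H7.04 and kgd1. Inside values at SPBTRNATRP.03, SPBTRNAASN.02, imt06, SPBTRNALEU.08 and SPBTRNATHR.07 share this limit, since each has identical copies elsewhere.

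**Figure D3:**
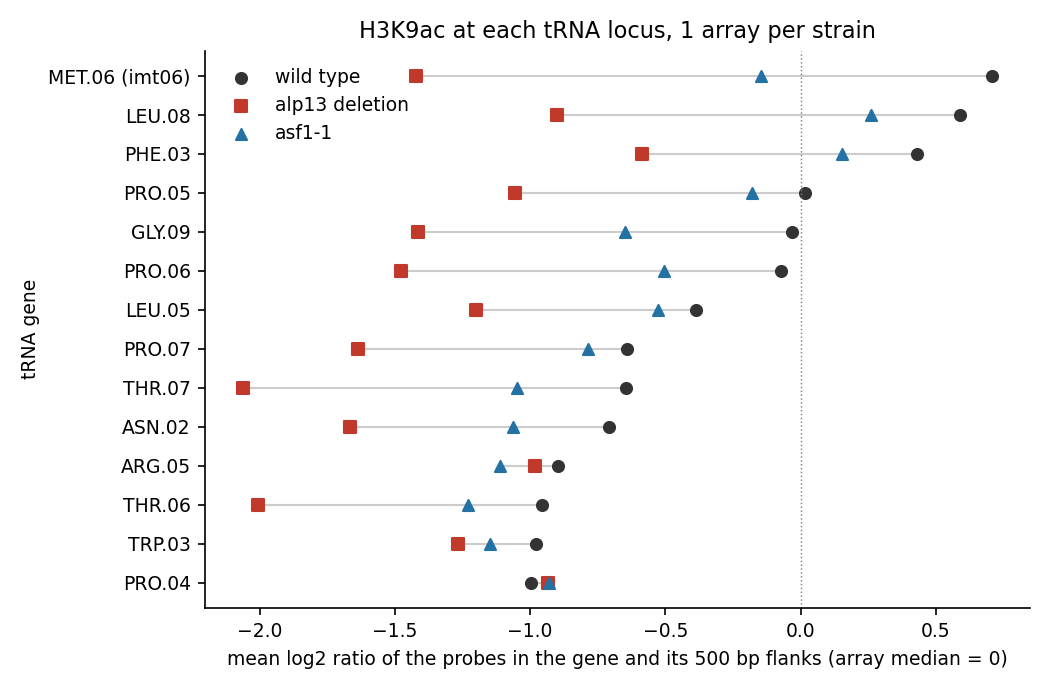
Mean H3K9ac level of each of the 14 tRNA loci (log2 ratio over 21 or 22 probes, array median at 0) in wild type (black circles), the alp13 deletion (red squares) and asf1-1 (blue triangles), ordered by wild type. Grey lines join the lowest and highest strain of a locus; the alp13 deletion is the lowest strain at 12 loci and asf1-1 lies between the other strains at 12.

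Setting the alp13 deletion against wild type asks how H3K9ac around tRNA genes stands when a subunit of the Clr6 deacetylase complex is missing. Relative to the array median, the surroundings of tRNA genes were lower in the deletion, as intergenic DNA was in general. The median level was -0.49 in wild type and -1.34 in the deletion and the median change was -0.997, against -1.17 over other intergenic probes. The member probes outside protein-coding genes changed by 0.14 less than those other intergenic probes (difference 0.14). By position that difference was -0.08 upstream of protein-coding genes, 0.16 downstream and 0.56 elsewhere between genes, where members changed by a median of -1.09 and the others by -1.65. Of the 14 loci, 11 were lower by at least 1.5-fold and 0 higher, where 31% of the windows of 1100 bp were lower and 23.5% higher. Intergenic regions without a tRNA gene are the nearer background: 89.5% of the 220 of at least 582 bp were lower by as much, against 13 of the 14 regions with a tRNA gene, and 0.909% were higher. So the count at tRNA genes was near the background of intergenic DNA as a whole. The sign rests on the centring of the arrays. With each array centred on its intergenic probes the median change was 0.21, with 1 locus lower and 3 higher by 1.5-fold, and with no centring it was -0.59.

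What did not depend on the centring was the order of the levels. In the deletion all 14 loci lay below the array median, where 45.5% of windows and 85.9% of intergenic regions without a tRNA gene did, from -2.06 at SPBTRNATHR.07 to -0.59 at SPBTRNAPHE.03, and the member probes stood 0.76 below other intergenic probes (difference of medians outside protein-coding genes -0.76). The local dip was deeper than in wild type. The level within 200 bp minus that from 1 to 2 kb away had a median of -1.61, from -2.35 at SPBTRNATHR.07 to -0.46 at SPBTRNAPRO.05, and 12 of 14 loci were lower by at least 1.5-fold, against 57.5% of the middles of other intergenic regions, whose median was -0.68. The dip deepened at 13 of 14 loci, by a median of -0.91, and by at least 1.5-fold at 12. Other intergenic regions moved down about as often and further at the median, with 81.3% past that fold and a median of -1.34. The dip thus lay deeper at tRNA genes in both strains, while the median step between the strains was smaller there.

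The largest change was at imt06, from 0.71 in wild type to -1.42 in the deletion, a change of -2.13 ± 0.72 (SD, 21 probes). Every probe of that locus was lower. The flank toward the start of map4, a gene for a cell agglutination protein, went from 1.40 to -1.38, and the flank at the end of SPBC21D10.08C from 0.13 to -1.44. In the deletion the means of the sides of imt06 were thus close to each other. The mean of the SPBC21D10.08C side includes 1 probe at -4.30, which read -3.22 in wild type. The other probes of that side ran from -1.56 to -0.80 in the deletion. At SPBTRNALEU.08, between the divergent genes ppk26, a protein kinase, and pic1, the level was 0.59 in wild type and -0.90 in the deletion, a change of -1.49 ± 0.44 (21 probes). At SPBTRNATHR.07, between gpx1 (glutathione peroxidase) and gtb1 (gamma tubulin), it went from -0.65 to -2.06, a change of -1.42 ± 0.55 (22 probes). Here the sides differed: the gtb1 flank changed by -1.88 and the gpx1 flank, already at -1.40 in wild type, by -1.03.

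SPBTRNAPRO.06, between trx2 (thioredoxin) and ned8 (a ubiquitin-like modifier), went from -0.07 to -1.48, a change of -1.41 ± 0.86 (21 probes). The flank toward the start of trx2 changed by -2.12 and that at the end of ned8 by -0.77. SPBTRNAGLY.09, between rrs1 (ribosome biogenesis) and gef3, went from -0.03 to -1.42, a change of -1.38 ± 0.38 (22 probes), and the rrs1 gene itself was lower by 1.41 (change -1.41). Of the loci with changes near -1, SPBTRNAPRO.05 changed by -1.07 ± 0.17 (22 probes) from 0.02, and SPBTRNATHR.06, next to pht1, the gene of histone H2A.Z, by -1.05 ± 0.15 (21 probes) from -0.96. SPBTRNAPHE.03 changed by -1.02 ± 0.61, unevenly, with -1.60 on the lam1 side and -0.44 on the SPBC2G5.01 side. SPBTRNAPRO.07 changed by -0.997 ± 0.23, SPBTRNAASN.02 by -0.96 ± 0.30 and SPBTRNALEU.05 by -0.81 ± 0.21. At each of these 6 loci every probe was lower, and each turned to a small positive change, 0.14 to 0.40, with centring on intergenic probes.

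Only 3 loci stayed within 1.5-fold, and all 3 were already low in wild type. A low wild-type level did not set them apart, since SPBTRNATHR.06, at -0.96 in wild type, changed by -1.05. SPBTRNAPRO.04 read -0.998 in wild type and -0.94 in the deletion, a change of 0.06 ± 0.69 (22 probes). Its sides moved apart: the flank at the end of nop52, a gene of rRNA processing, changed by 0.75 and that toward clc1 by -0.52. SPBTRNAARG.05 read -0.90 and -0.98, a change of -0.09 ± 0.50 (22 probes), with the flank at the end of stn1, a telomere protein, at 0.38 and that at the end of meu18 at -0.52. SPBTRNATRP.03 read -0.98 and -1.27, a change of -0.29 ± 0.61 (21 probes). There the probe in the gene changed most, from -0.25 to -2.11, and the flanks by -0.45 at the end of tif307 and 0.03 at the end of sce3, both genes of translation initiation. At these loci a mean near 0 covers flanks that went opposite ways or stood still, as the maps of the change along each locus show.

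Sorted by what faces the tRNA gene, a grouping chosen after the values were seen, the 16 flanks that face the start of a protein-coding gene had a median wild-type level of -0.03 and a median change of -1.15, from -2.78 to -0.44, and 14 were lower by at least 1.5-fold. The 12 flanks that face an end had a median wild-type level of -0.68 and a median change of -0.77, from -1.60 to 0.75, with 7 lower and 1 higher. The background at hand is of single probes outside the loci and not of flank means. Within 500 bp upstream of protein-coding genes 82.2% of them were lower by as much, and downstream 58.8% were lower and 6.14% higher. Elsewhere between genes, where part of these flanks lies, 93.6% were lower. The counts of flanks are near these shares, but the sets differ. Flanks that face an end also hold probes counted as upstream of another gene. In the deletion both kinds of flank stood at about the same level, with medians of -1.42 and -1.31. The neighbouring gene lay nearer on the flanks that face an end, at a median of 403 bp against 709 bp.

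**Figure D4:**
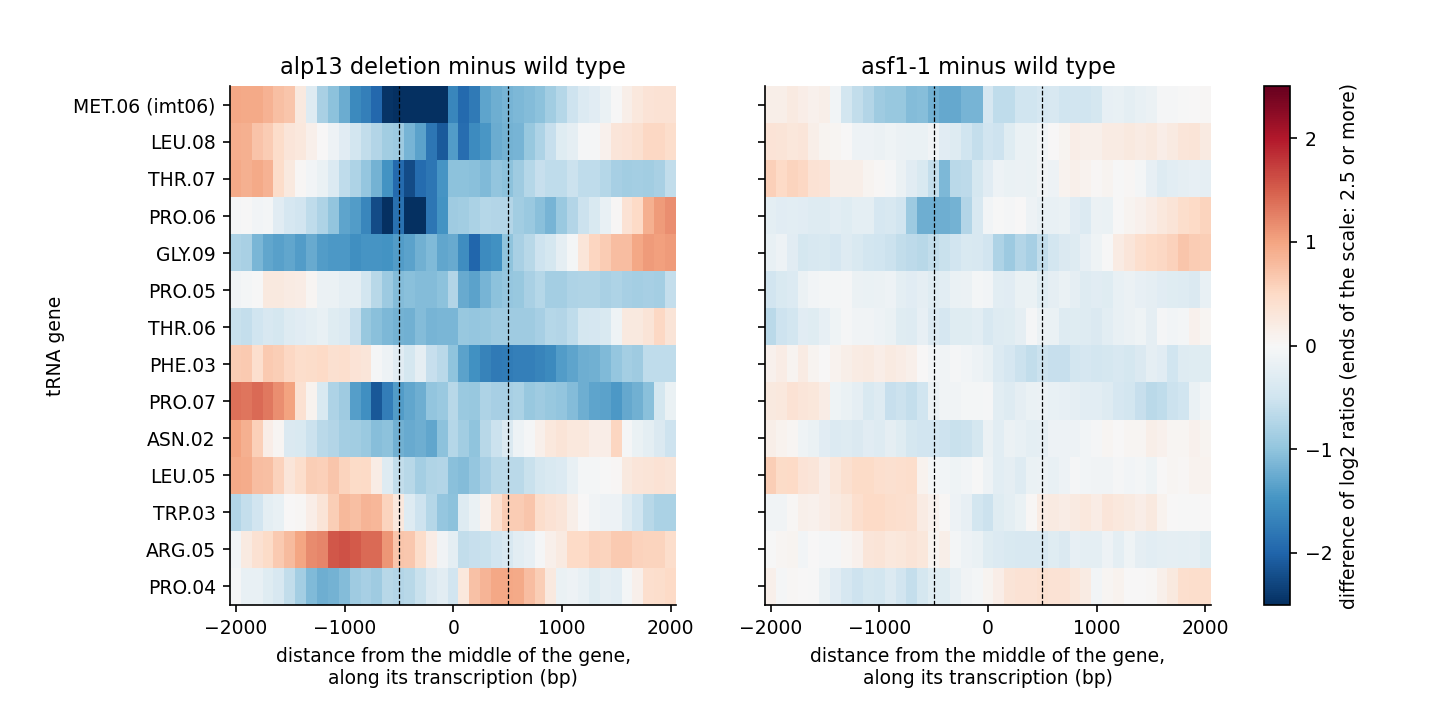
Change in H3K9ac (difference of log2 ratios) along each tRNA locus in bins of 100 bp, for the alp13 deletion (left) and asf1-1 (right) against the same wild-type array, with loci ordered by their mean change in the alp13 deletion. Dashed lines mark 500 bp on either side; blue is lower and red higher than wild type, and the deepest blue lies at imt06 (locus mean -2.13 and -0.86), while SPBTRNAPRO.04 at the bottom has lower values on one side and higher on the other.

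The same question was put to asf1-1, in which the histone chaperone Asf1 is altered. The changes were small. The median level was -0.69 in asf1-1, with 12 of 14 loci below the array median against 46.9% of windows and 38.2% of intergenic regions without a tRNA gene, and the median change -0.26, against -0.40 over other intergenic probes, a difference of 0.13 outside protein-coding genes (0.06 upstream of them, 0.16 downstream and 0.30 elsewhere between genes). Of the 14 loci, 2 were lower by at least 1.5-fold and 0 higher, where 6.03% of the windows of 1100 bp were lower and 3.81% higher. Among intergenic regions, 3 of 14 with a tRNA gene and 27.3% of those without were lower by as much, so the count at tRNA genes was within the intergenic background. It ranged from 0 loci with centring on intergenic probes, where the median change was 0.17, to 8 under normexp, where the median change was -0.48.

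The 2 loci were imt06 and SPBTRNAGLY.09. At imt06 the level went from 0.71 to -0.15, a change of -0.86 ± 0.39 (21 probes), and every probe was lower. Again the map4 flank changed most, by -1.22 from 1.40 to 0.18. At SPBTRNAGLY.09 the level went from -0.03 to -0.65, a change of -0.62 ± 0.25 (22 probes), also with every probe lower. These loci were the dimmest and the second dimmest in Cy3 on the wild-type array, at 162 and 280.4, and the part of this in the change was not tested. The other changes ran from -0.43 ± 0.52 at SPBTRNAPRO.06 to 0.07 ± 0.27 at SPBTRNAPRO.04. At SPBTRNAPRO.06 the change lay on the trx2 side alone, at -0.85 against -0.07 on the ned8 side. Between these stood SPBTRNATHR.07 at -0.40, SPBTRNAASN.02 at -0.35, SPBTRNALEU.08 at -0.33, SPBTRNAPHE.03 at -0.28 and SPBTRNATHR.06 at -0.27. SPBTRNAARG.05 at -0.21, SPBTRNAPRO.05 at -0.20, SPBTRNATRP.03 at -0.17, SPBTRNAPRO.07 at -0.15 and SPBTRNALEU.05 at -0.14 changed least among those below 0. The change was below 0 at 13 of 14 loci, as it was in 93.2% of intergenic regions without a tRNA gene and 54.7% of windows. No error between cultures is known for changes of this size.

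The local dip at tRNA genes in asf1-1 was between those of the other strains. The level within 200 bp minus that from 1 to 2 kb away had a median of -0.78, from -1.68 at SPBTRNATHR.07 to 0.30 at SPBTRNAPRO.05, and 9 of 14 loci were lower by at least 1.5-fold, against 13.7% of the middles of other intergenic regions, with a median of 0.18. Against wild type the dip deepened by a median of -0.22, and by 1.5-fold at 3 loci, where 35.6% of other intergenic regions did so with a median of -0.47. The member probes stood 0.90 below other intergenic probes (difference -0.90), between the -1.12 of wild type and the -0.76 of the alp13 deletion.

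Set against each other, the mutants ask whether losing the Clr6 subunit and altering the chaperone leave tRNA surroundings alike. They did not stand at the same level. Over the 301 probes asf1-1 was higher than the alp13 deletion by a median of 0.74, against 0.78 over other intergenic probes. For the 249 member probes outside protein-coding genes the median was also 0.78 (difference -0.0066). By locus, asf1-1 was higher by at least 1.5-fold at 11 of 14 and lower at 0. Of the windows of 1100 bp, 22.1% were higher and 17.1% lower, and 72.3% of intergenic regions without a tRNA gene were higher. The differences ran from -0.13 at SPBTRNAARG.05 to 1.27 at imt06, and the 3 loci within 1.5-fold were SPBTRNAARG.05, SPBTRNAPRO.04 and SPBTRNATRP.03, the same 3 as between the alp13 deletion and wild type, where the deletion array is the same. With centring on intergenic probes the median difference was -0.049. Over the 301 probes, the levels correlated at r = 0.91 between asf1-1 and wild type, 0.71 between the mutants and 0.48 between the alp13 deletion and wild type, as they did over all kept probes (0.89, 0.71 and 0.48). Probes are not independent, and all pairs share probe sequences.

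The protein-coding genes next to tRNA genes did not move as their intergenic flanks did. Over their whole length, the 28 neighbours had a median change of 0.04 in the alp13 deletion, with 4 higher and 6 lower by at least 1.5-fold, where 15.7% of all 860 genes measured were higher and 21.6% lower, with a median of -0.05. The lower neighbours were rrs1 (-1.41), lam1 (-1.08), SPBC1703.13C (-0.99), ned8 (-0.96), gpx1 (-0.66) and trx2 (-0.62). The higher ones were stn1 (0.92), kgd1 (0.81), pic1 (0.79), a subunit of the chromosomal passenger complex, and ell1 (0.67), an elongation factor of RNA polymerase II. The whole of map4 changed by 0.04 ± 1.40 (SD, 77 probes), so the lower level at its start beside imt06 did not extend over the gene. In asf1-1 none of the 28 passed 1.5-fold in either direction, and their median was 0.00. Of all genes, 1.63% were higher and 1.98% lower. Calls of genes, here and in the lists below, rest on the centring of the arrays, and no other centring was run for them.

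Genes of the machinery that acts on tRNA genes were read from lists, of which the arrays held few members, too few to set apart from the 15.7% higher and 21.6% lower of all genes in the alp13 deletion and the 1.63% and 1.98% in asf1-1. Of 24 genes for RNA polymerase III and its factors, 6 had 3 or more probes. In the alp13 deletion rpc1, the largest subunit, was higher (1.52 ± 0.63 SD, 93 probes), as was sfc9, a TFIIIC subunit (0.64 ± 0.33, 50 probes). The subunit genes rpc10 and rpc25 were lower, at -1.24 and -0.67, and the TFIIIC genes sfc3 and sfc6 stood at -0.05 each. The list median was -0.05, that of all genes. Both condensin genes measured, cut3 (0.82) and cut14 (0.71), were higher, of 5 in the list. Of 42 genes of tRNA processing and modification, 7 were measured, with trz2, a tRNA 3′ processing enzyme, higher (0.74), 0 lower and a median of 0.06. In asf1-1 none of the polymerase III or condensin genes passed 1.5-fold, and dus1, a dihydrouridine synthase, was higher at 0.62 among the processing genes.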

How the data were processed

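H3K9ac was measured on 1 two-colour tiling array for each of 3 strains. The scanner software, Agilent Feature Extraction (version 10.7.3.1), had subtracted the background from the deposited intensity of both channels, detrended it and applied a linear dye factor, per the file headers. Its deposited log10 ratio is Cy5 over Cy3, and spot flags (other values, 0 or 1) come from the same software, per the file headers. For the array coordinates, the build is not given in the sources used. The authors' value table, deposited as a score per probe of unstated scale, centring and direction, has column medians of 0.114, 0.0849 and -0.0204 (wild type, alp13 deletion, asf1-1). It correlated with the log ratios of its own arrays at 0.226, 0.528 and -0.58, below the level set for its use, and entered no comparison.

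From the deposited intensities, log2 ratios of Cy5 to Cy3 were computed and centred on each array's median, which was 0.00, 0.41 and 0.17 before centring in the same order. No loess or quantile step was used. Control and outlier spots were left out, which kept 43912 of 43993 probes, 39286 of them in the stretch. Probes were placed on the ASM294v3 reference with an offset of 900 bp below array base 1616911 and 1800 bp above. Around each of the 14 loci, in blocks of 20000 bp, the offset with the highest correlation of GC content and Cy3 was within 20 bp of these. Changes were called at 1.5-fold, a round size and not a test. Backgrounds were windows of 1100 bp with at least 20 probes, intergenic probes and intergenic regions. Every tRNA gene with a member probe was named, with its nearest protein-coding neighbours and the measured genes of the lists (3 or more probes). The loci and lists were chosen with earlier results of these data known. For normexp (offset 50, limma 3.58.1, R 4.3.3) the median signals stood in for mean signals. Other steps used Python 3.11.15, numpy 2.4.6 and pandas 2.3.3. Of these, the locus changes and the level within 200 bp minus that from 1 to 2 kb away were tested on simulated data. With 1 array per strain, no interval, replicate error or test could be given, and the number of arrays limits the precision.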

Additional observations from a re-analysis of the deposited data

How the results depend on the processing

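The level of H3K9ac and its sign against wild type depended on the processing more than the order of classes did. Of 176 comparisons of a main value with an alternative, 132 were classed as the same, 42 as moved and 2 as reversed. No replicate spread stands behind these classes, and not every change of sign was classed as reversed. With centring on intergenic probes the change around tRNA genes reversed to 0.21 in the alp13 deletion and the difference between mutants to -0.049. The asf1-1 change was then 0.17, against a main value of -0.26, a change of sign classed as moved. For that change, members minus other intergenic probes also took both signs, from -0.16 to 0.16 across the alternatives. With centring on intergenic probes the wild-type level was -1.05, and 1 locus was lower and 3 higher in the alp13 deletion and 0 lower in asf1-1. SPBTRNALEU.05 (0.40), SPBTRNATHR.06 (0.16), SPBTRNAPRO.05 (0.14), SPBTRNAASN.02 (0.26), SPBTRNAPHE.03 (0.19) and SPBTRNAPRO.07 (0.21) reversed in the alp13 deletion. Without centring the changes were -0.59 and -0.094, the difference between mutants 0.49, and 1 locus was lower in asf1-1. These shifts follow from the centring itself.

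Under normexp the wild-type level was -0.10, the changes -1.20 and -0.48, and 8 loci were lower in asf1-1. Members minus other intergenic probes came to -0.47 in wild type, 0.00 (-0.0031) for the alp13 change and -0.16 for the asf1-1 change. In this section such differences take all members, those inside protein-coding genes included. The -1.12, -0.76, -0.90, 0.14 and 0.13 given above leave those out. The level within 200 bp minus that from 1 to 2 kb away was -0.059 in wild type, with 2 loci lower, and -1.08 in asf1-1. On Cy5 alone the wild-type level was -1.84, with imt06 (SPBTRNAMET.06) reversed to -2.32 and SPBTRNALEU.08 to -1.71, the alp13 change -0.68 and the difference between mutants 0.48. Members minus other intergenic probes were -1.47, -1.23 and -1.31, and the dips -2.29, -2.91 and -2.44, for wild type, alp13 deletion and asf1-1, with 12 loci lower in wild type. The cause was not tested for normexp or Cy5. With arrays at equal spread the difference between mutants was 0.63.

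A flank of 250 bp gave a wild-type level of -0.66, members minus other intergenic probes of -1.23 in wild type and -1.03 in asf1-1, and 1 locus lower in asf1-1. A flank of 1000 bp gave -0.26, an alp13 change of -0.86, members minus other intergenic probes of -0.84, -0.36 and -0.61 in the 3 strains and 0.32 for the alp13 change, and 1 locus lower in asf1-1. Locus medians in place of means also left 1. Alternatives for the dip, and those without the loci next to 5S rRNA genes, were chosen after seeing the data. No paired analysis was possible because each strain had 1 array, for which no array could be left out either. The value table was not run as an alternative, since its columns did not follow their own arrays.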

Other observations

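Other genes of RNA polymerase III and other small RNA genes lay in the same stretch. The 5S rRNA genes, also transcribed by RNA polymerase III, gave 7 loci by the same 500 bp flank, of which SPRRNA.33 and SPRRNA.39 lie 307 bp from SPBTRNATHR.06 and 176 bp from SPBTRNAASN.02. The 136 probes around 5S genes that were not near a tRNA gene had a median level of -0.42 in wild type, -0.89 without alp13 and -0.34 in asf1-1. Their median changes were -0.64 and -0.05, against -0.997 and -0.26 around tRNA genes. Along the 5S loci the wild-type level within 200 bp minus that from 1 to 2 kb away ran from -0.24 at SPRRNA.35 to 0.18 at SPRRNA.34, while in the alp13 deletion it ran from -1.29 at SPRRNA.32 to -0.62 at SPRRNA.39.

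The surroundings of 15 snoRNA genes, whose RNAs guide rRNA modification and are made by RNA polymerase II, had a median level of 0.30 in wild type and -0.54 in the alp13 deletion over 360 probes, with median changes of -0.96 and -0.29. In wild type they thus stood above the surroundings of both tRNA and 5S rRNA genes, and their change in the alp13 deletion was near that around tRNA genes. The 23 probes around 1 snRNA gene had a median level of 0.34 in wild type and -1.32 in the alp13 deletion. Their median changes, at this 1 locus, were -1.57 in the alp13 deletion and -0.86 in asf1-1, larger than those of the other classes. These classes overlap protein-coding genes to different degrees, and no difference between them was tested.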
